A study of Mus musculus with 12 samples.

Results

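The transcripts described here are those of 9 genes that act in the nucleus of ovulatory follicle cells: the progesterone receptor (Pgr), the estrogen receptors alpha and beta (Esr1 and Esr2), the orphan receptors SF-1 and LRH-1 (Nr5a1 and Nr5a2), their repressor DAX-1 (Nr0b1), the glucocorticoid receptor (Nr3c1), the lipid sensor PPARG (Pparg) and the coregulator RIP140 (Nrip1). They were chosen by symbol, each was matched to 1 Ensembl identifier, and all 9 were found in both deposited tables, which hold 26382 genes in common and 35856 genes in all. 8 of the 9 are nuclear receptors and Nrip1 is a protein that binds them. The question behind the series was what loss of the sphingosine kinases does to the 2 somatic cell types around the oocyte, the mural granulosa cells (MGCs) that line the follicle wall and the cumulus cells that enclose the oocyte. RNA was taken 2 h after an ovulatory injection of hCG, which acts on the LH receptor, and was sequenced as 3 libraries in each of 4 groups: WT MGCs, Sphk1/2 knockout MGCs, WT cumulus cells and Sphk1/2 knockout cumulus cells. The WT mice were C57/BL6, and the knockout mice (Sphk1/2 gc-/-) were Sphk1-/-; Sphk2 fl/fl; Fshr-Cre, so that Sphk1 was lost in the whole body and Sphk2 where Fshr-Cre was active, that is in granulosa cells. All groups came from females that had received 5 IU of eCG at 21 to 23 days of age and, 48 h later, 5 IU of hCG. How many animals went into a library is not given in the sources used here, so p-values measure the spread between these libraries, which may be technical in part.

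Nuclear receptors are transcription factors, most of them switched by a small lipid-soluble ligand, and coregulators such as RIP140 and CBP set whether a bound receptor activates or represses. In the follicle, estrogen acting through ESR2 and the orphan receptors SF-1 and LRH-1 maintain the granulosa program, including aromatase and the LH receptor, and LRH-1 and RIP140 are both needed for ovulation in mice. The LH surge induces the progesterone receptor in mural granulosa cells within hours, and this receptor controls rupture of the follicle wall, in part through PPARG and endothelin-2.

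Levels are given as FPKM, read counts divided by the length of the exons and by the size of the library, so that the 9 transcripts can be set beside each other. The length is that of all annotated exons of a gene, 13661 bases for Esr1 and 3368 for Esr2. A transcript that uses only part of them is understated, so orders and ratios between genes are approximate. The totals worked out from the values were 16100365 to 19761604 reads per library. Knockout MGC library 3 stood apart from the other MGC libraries, with correlations of 0.922 to 0.946 to them where other pairs reached 0.989, and WT cumulus library 3 listed 27541 genes above 0 against 18788 to 19289 in the other cumulus libraries. Results that rest on either library are given with and without it. Of the targeted genes, both overlapped between the genotypes in both cell types. Sphk1 measured 1.68, 1.89 and 0.460 FPKM in WT MGCs and 0.432, 0.557 and 0.104 in the MGC libraries labelled knockout. In cumulus cells the WT libraries held 7, 6 and 8 Sphk1 reads and the libraries labelled knockout 7, 43 and 51. Sphk2 was at 5.18 to 5.86 FPKM in WT MGCs and 4.51 to 6.29 in those labelled knockout, and at 0.403 to 0.602 and 0.434 to 0.752 in cumulus cells. Genotypes below are therefore those of the labels, which read control and knockout, with control written as WT, the study's name. Every direction between them is one between libraries labelled knockout and control. Of the markers of the cell types, Lhcgr, the LH receptor, was at 209.7 to 564.7 FPKM in MGCs and 1.93 to 18.7 in cumulus cells, and Has2, the hyaluronan synthase of the cumulus matrix, was at 10.1 to 25.8 and 31.9 to 89.6 FPKM, both in the direction of the labels. Ptx3, another matrix gene, overlapped between the cell types, at 9.08 to 113.5 FPKM in MGCs and 91.3 to 525.6 in cumulus cells. The cumulus markers Amh (0.102 to 2.16 FPKM in cumulus cells, 87.3 to 225.5 in MGCs), Npr2 (17.01 to 20.7 and 60.9 to 87.0) and Slc38a3 (0.341 to 3.23 and 13.9 to 41.6) went against the cumulus label. So did Tnfaip6 in the WT libraries, at 121.6 to 282 FPKM in cumulus cells and 746.6 to 938 in MGCs. The cell types were deposited in separate tables, so cell type and table cannot be told apart. The summed level of 7 oocyte markers was 25.7 to 109.9 FPKM in MGC libraries and 1.20 to 4.78 in cumulus libraries, and that of 9 leukocyte markers was 164.6 to 312 in WT MGCs, 27.0 to 221.7 in MGCs labelled knockout and 4.88 to 58.0 in cumulus cells. Theca and stroma markers summed to 162.6 to 365.5 FPKM in MGCs and 11.5 to 61.4 in cumulus cells. The part of these cells in the differences between cell types was not tested, and in RNA from many cells, fewer cells that express a gene and less RNA of it per cell cannot be told apart.

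In WT MGCs the order of the 9 transcripts was led by Nr5a2 at 278 ± 35.1 FPKM (SD, n = 3), place 103 among 17822 protein-coding genes, and by Pgr at 119 ± 20.2. Esr2 (57.4 ± 9.46), Pparg (57.1 ± 22.7) and Nr5a1 (35.6 ± 4.22) followed, and of these, Esr2 and Pparg overlapped, as did Pparg and Nr5a1. Nrip1 stood at 19.2 ± 1.09 FPKM, and Nr0b1 (3.36 ± 1.99), Nr3c1 (3.23 ± 0.119) and Esr1 (0.887 ± 0.139) were low, with Nr0b1 and Nr3c1 overlapping. In WT cumulus cells the order was another. Pparg led at 166 ± 24.3 FPKM, place 304 among 19022 protein-coding genes, and Nr5a2 came next at 28.3 ± 3.72, overlapping with Esr2 at 22.9 ± 2.88. Nrip1 (9.39 ± 1.28) and Nr5a1 (8.58 ± 0.176) overlapped, and Esr1 (1.78 ± 0.230), Pgr (1.02 ± 0.750), Nr3c1 (0.711 ± 0.187) and Nr0b1 (0.410 ± 0.246) lay at the bottom, where each overlapped with the next in the order. In MGCs labelled knockout, Pgr, Pparg, Esr2 and Nr5a1 formed a chain of overlapping levels below Nr5a2 (285 ± 40.7 FPKM). In cumulus cells labelled knockout, Nr5a2 (9.44 ± 1.93) lay below Esr2 (22.1 ± 2.89) without overlap and overlapped with Nr5a1 (7.67 ± 1.17), and Nr0b1 (0.736 ± 0.147) and Pgr (0.474 ± 0.360), the last in the order, overlapped.

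**Figure D1:**
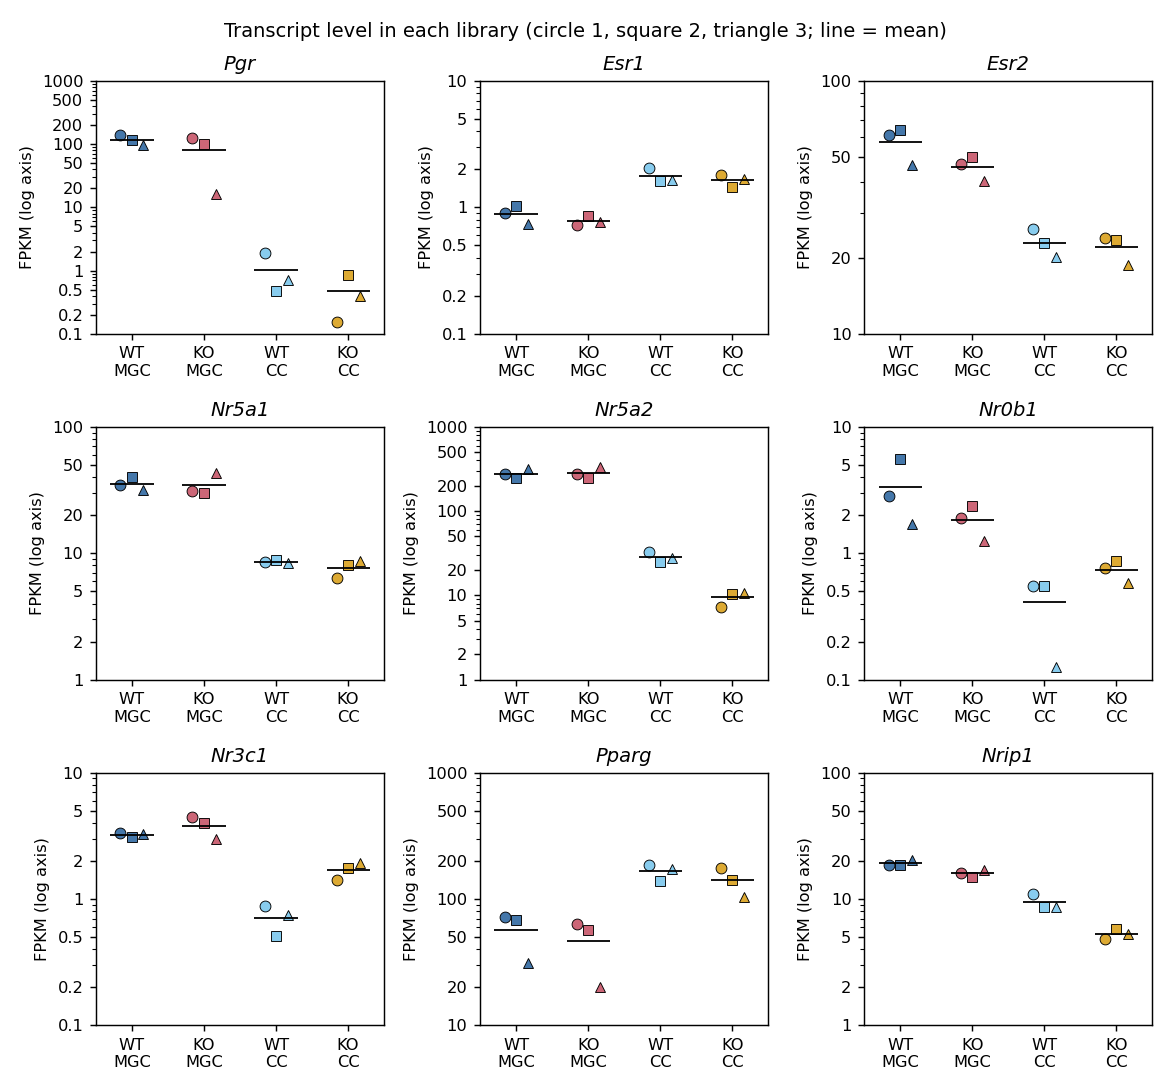
Each panel plots the FPKM of 1 transcript (vertical axis, log scale) in the 12 libraries by group (horizontal axis: WT, labelled control, and KO, labelled knockout, MGC, mural granulosa cells, CC, cumulus cells), with circle, square and triangle for libraries 1, 2 and 3 and a line for the mean. Nr5a2 sits at 247 to 329 in MGCs, 25.0 to 32.3 in WT cumulus cells and 7.22 to 10.6 in cumulus cells labelled knockout, and Pgr in knockout MGC library 3 sits at 16.2, far below the other MGC libraries.

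The cell types were compared first, in a fit of all 12 libraries with limma on log2(FPKM + 1), where passing meant an adjusted p (Benjamini-Hochberg, all tested genes together) no greater than 0.05. In WT, 7 of the 9 transcripts were higher in MGCs, 2 were lower and the libraries of the 2 cell types overlapped for none, but 76.6% of all 15869 genes tested passed in this comparison (52.5% higher, 24.1% lower) and 82.1% did not overlap. All 9 passed without knockout MGC library 3 or WT cumulus library 3 as well. The deposited scale places the median gene 0.54 log2 units higher in WT MGCs than in WT cumulus cells, and median-of-ratios scaling lowers that shift to 0.09. The median of the 9 transcripts was 1.31.

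Pgr, the receptor that LH induces, differed most. WT MGC libraries 1 to 3 held 139, 118 and 98.8 FPKM of it, whereas the WT cumulus libraries held 1.88, 0.469 and 0.720 FPKM, from 258, 72 and 108 reads. The means differed 116-fold, with a log2 fold change of 5.94 (SE 0.583, adjusted p = 1.8e-06, limma). Nr5a2, LRH-1, reached 273, 247 and 316 FPKM in WT MGCs but 32.3, 25.0 and 27.5 in WT cumulus cells, a log2 fold change of 3.25 (SE 0.177, adjusted p = 1.4e-08, limma). Its relative Nr5a1, SF-1, was at 34.8, 40.1 and 31.8 FPKM against 8.54, 8.78 and 8.43, a log2 fold change of 1.93 (SE 0.165, adjusted p = 5.6e-07, limma). All 3 were thus higher in every WT MGC library than in any WT cumulus library, and they stayed past the threshold, at 5.37, 2.53 and 1.23, with median-of-ratios scaling.

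The 2 estrogen receptors went opposite ways. Esr2, the form that carries estrogen action in granulosa cells, measured 61.2, 64.3 and 46.6 FPKM in WT MGCs and 25.9, 22.8 and 20.1 in WT cumulus cells, a log2 fold change of 1.28 (SE 0.165, adjusted p = 1.9e-05, limma). Esr1 measured 0.897, 1.02 and 0.742 FPKM in WT MGCs and 2.04, 1.63 and 1.66 in WT cumulus cells, a log2 fold change of -0.56 (SE 0.126, adjusted p = 0.00155, limma). Esr2 was thus the more abundant form in every library, by 62.7 to 68.3 times in WT MGCs and by 12.1 to 14.0 times in WT cumulus cells. Pparg was the other transcript with more in cumulus cells, at 186, 139 and 173 FPKM against 71.9, 68.4 and 30.9 in WT MGCs (log2 fold change -1.61, SE 0.415, adjusted p = 0.00377, limma), although with quantile normalization its difference of -1.13 no longer passed (adjusted p = 0.0645, limma). WT MGC library 3 was the lowest of the WT MGC libraries in Pgr, Esr1, Esr2, Nr5a1, Nr0b1 and Pparg.

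The remaining 3 transcripts were higher in MGCs. Nr0b1, the repressor of SF-1 and LRH-1, measured 2.82, 5.57 and 1.71 FPKM in WT MGCs and 0.550, 0.554 and 0.126 FPKM, from 16, 18 and 4 reads, in WT cumulus cells (log2 fold change 1.55). Nr3c1, the receptor for glucocorticoids, was at 3.32, 3.10 and 3.29 FPKM against 0.878, 0.509 and 0.744 (1.31). Nrip1 was at 18.5, 18.6 and 20.4 FPKM against 10.9, 8.64 and 8.65, a log2 fold change of 0.96 that came to 0.28 and did not pass with median-of-ratios scaling (adjusted p = 0.110, limma). In the libraries labelled knockout, the same 7 transcripts were higher and the same 2 lower in MGCs, with 73.4% of all genes passing (51.3% higher, 22% lower) and 73.9% not overlapping. The differences there were 5.38 for Pgr, 4.78 for Nr5a2, 2.04 for Nr5a1, 1.43 for Nrip1, 1.02 for Esr2, 0.82 for Nr3c1, 0.69 for Nr0b1, -0.57 for Esr1 and -1.69 for Pparg. That of Pgr ranged from 4.86 to 6.29 with single libraries left out. With the median gene brought to 0.09 by median-of-ratios scaling, Esr2 (0.31), Nr3c1 (0.31) and Nr0b1 (0.31) did not pass in the libraries labelled knockout, and with quantile normalization Nr3c1 (0.01) did not pass and the difference of Nr0b1 turned to -0.016. The call of Nr0b1 there (adjusted p = 0.0408, limma) was also lost in 8 of the 12 fits that left out a library, with adjusted p up to 0.131.

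The 9 genes were also set against the whole family of receptors. The summed FPKM of 49 listed nuclear receptors was 1296 to 1407 in WT MGCs, 988 to 1150 in MGCs labelled knockout, 239 to 310 in WT cumulus cells and 214 to 266 in cumulus cells labelled knockout. The 8 receptors described here made up 39.7 to 41.7% of that sum in WT MGC libraries and 79.7 to 83.3% in WT cumulus libraries. In MGCs the largest share was that of Nr4a1, an immediate early orphan receptor induced by LH, at 46.9, 48.5 and 49.8% in the WT libraries, followed by Nr5a2 at 19.4, 17.9 and 24.4%. In WT cumulus cells, Pparg alone held a mean of 59.2% of the sum, with 58.3% in the lowest library, and Nr5a2 10.4, 10.5 and 9.41%. In cumulus cells labelled knockout, Nr5a2 held 2.71, 4.07 and 4.97%, below each WT cumulus library, and Pparg 66.3, 55.0 and 48.7%, on both sides of them. The number of receptors with a group mean of at least 1 FPKM was 29 in WT MGCs, 28 in MGCs labelled knockout, 16 in WT cumulus cells and 18 in cumulus cells labelled knockout.

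**Figure D2:**
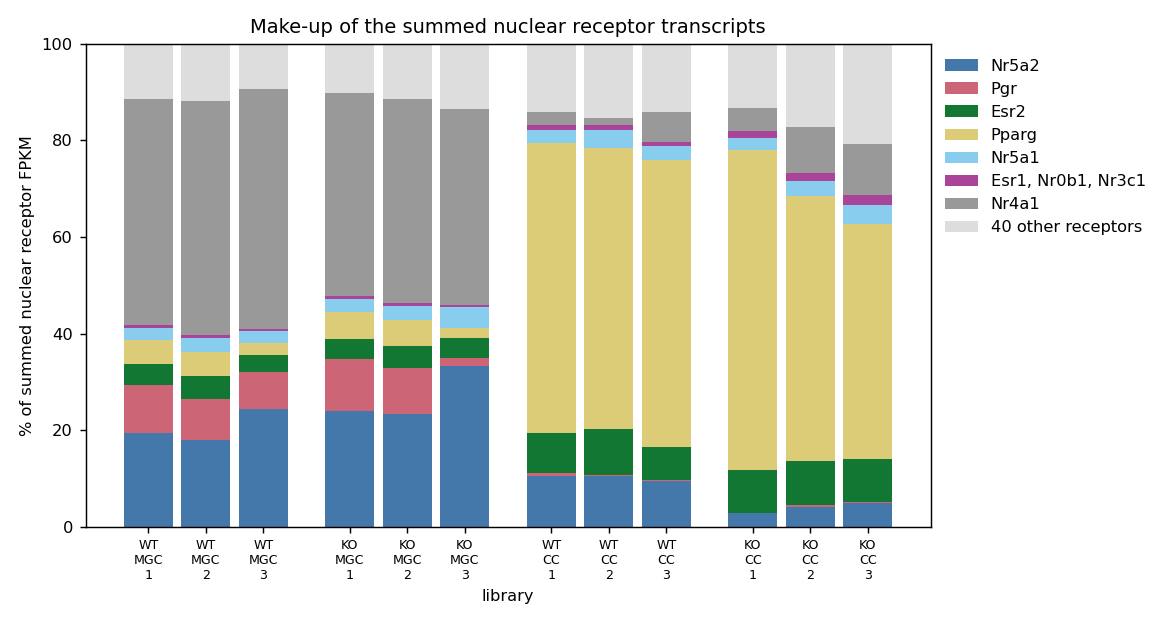
Stacked bars give the share of each receptor (vertical axis, % of the summed FPKM of 49 nuclear receptors) in the 12 libraries (horizontal axis; KO, labelled knockout; MGC, mural granulosa cells; CC, cumulus cells), with the 40 receptors other than those named pooled in light grey. Nr4a1 and Nr5a2 take up most of each MGC bar, and Pparg takes up 48.7 to 66.3% of the cumulus bars.

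Between genotypes, the transcripts that passed did so in cumulus cells. There, Nr5a2 and Nrip1 were lower and Nr3c1 was higher in the libraries labelled knockout, while 6 of the 9 transcripts did not pass. The same 3 passed without WT cumulus library 3. They compare with 22.3% of all 12205 genes tested in cumulus cells (9.66% higher, 12.7% lower), a count of 2725 that ranged from 1319 without knockout cumulus library 3 to 3930 without knockout cumulus library 1. All 9 transcripts passed the filter on low levels, Nr0b1 through the libraries labelled knockout alone and Pgr through the WT libraries alone. The 4 transcripts whose genotypes did not overlap (these 3 and Nr0b1) compare with 42.3% of all genes. The median log2 fold change of the 9 was -0.15 and that of all genes -0.06.

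Nr5a2 was at 32.3, 25.0 and 27.5 FPKM in WT cumulus cells and at 7.22, 10.5 and 10.6 FPKM in those labelled knockout. The lowest WT library lay well above the highest of the other genotype, and the means, 28.3 ± 3.72 and 9.44 ± 1.93 FPKM (SD, n = 3), differed 3.00-fold. The log2 fold change was -1.498 (SE 0.188, 95% interval -1.93 to -1.07, adjusted p = 0.00217, limma), and it ranged from -1.59 to -1.21, past the threshold each time, over the 16 settings tried, left-out libraries included. It was the only 1 of the 9 to pass with a fold change of at least 2, which 8.04% of all genes did. Some summed markers of other cells did not overlap between genotypes in cumulus libraries. Oocyte markers were at 1.94 to 4.78 FPKM in WT and 1.20 to 1.61 in those labelled knockout, and red cell markers at 4.37 to 26.8 and 0.300 to 1.78. Of the red cell genes, Hba-a1, Hbb-bs and Hbb-bt overlapped and Alas2 did not (4.03 to 4.41 and 0.0434 to 0.641). Endothelium markers, all 6 below the filter, were at 0.276 to 0.931 and 0.176 to 0.262. Summed leukocyte markers (4.88 to 54.9 and 8.46 to 58.0) and theca and stroma markers (17.3 to 61.4 and 11.5 to 33.3) overlapped, but not every gene in them did. Of 5 theca and stroma genes tested, 1 passed, Cyp17a1, which was lower (9.45 to 26.2 and 4.44 to 8.34). It did not pass without WT cumulus library 3. Of 5 leukocyte genes tested, S100a9 was lower (1.75 to 11.7 and 0 to 0.194) and Cd74 higher (0 and 1.54 to 5.69). These 3 genes were named after their values were seen. The part of any of these cells in the levels of Nr5a2 and of the genes below was not tested.

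Nrip1, whose product represses or activates receptor targets and is needed for release of the oocyte, was at 10.9, 8.64 and 8.65 FPKM in WT cumulus cells and at 4.81, 5.84 and 5.32 in those labelled knockout. The genotypes did not overlap, and the log2 fold change was -0.71 (SE 0.154, 95% interval -1.07 to -0.36, adjusted p = 0.0149, limma). It missed the threshold without WT cumulus library 1 (adjusted p = 0.0559, limma) or without knockout cumulus library 3 (adjusted p = 0.0525, limma). Nr3c1 went the other way, at 0.878, 0.509 and 0.744 FPKM (109, 70 and 100 reads) in WT and 1.42, 1.74 and 1.95 FPKM (206, 265 and 287 reads) in cumulus cells labelled knockout, with means that differed 2.40-fold. Its log2 fold change of 0.66 (SE 0.152, 95% interval 0.31 to 1.0096, adjusted p = 0.0182, limma) understates that ratio, as the added 1 FPKM weighs on low levels. It missed the threshold without WT cumulus library 2 (adjusted p = 0.0749, limma), without knockout cumulus library 2 (0.0600) and without knockout cumulus library 3 (0.0699). Nr0b1 rested on few reads, at 16, 18 and 4 reads in WT and 26, 31 and 20 reads in cumulus cells labelled knockout (log2 fold change 0.31, adjusted p = 0.214, limma), and without WT cumulus library 3 its difference was 0.16.

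The other 5 transcripts overlapped between genotypes in cumulus cells. Pgr was at 0.155, 0.865 and 0.403 FPKM in the libraries labelled knockout, from 25, 146 and 66 reads (log2 fold change -0.42, 95% interval -1.05 to 0.21), and the difference was -0.14 without WT cumulus library 1 and -0.26 without knockout cumulus library 1. Pparg was at 176, 141 and 104 FPKM (-0.26, interval -0.76 to 0.24, and from -0.44 without knockout cumulus library 1 to -0.06 without knockout cumulus library 3) and Nr5a1 at 6.37, 8.01 and 8.63 FPKM (-0.15, interval -0.50 to 0.20). The estrogen receptors were at 24.0, 23.6 and 18.8 FPKM for Esr2 (-0.05, interval -0.43 to 0.33, with a sign that turned under both other scalings) and at 1.81, 1.46 and 1.68 FPKM for Esr1 (-0.07, interval -0.39 to 0.26). For none of these 5 did the interval exclude 0.

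**Figure D3:**
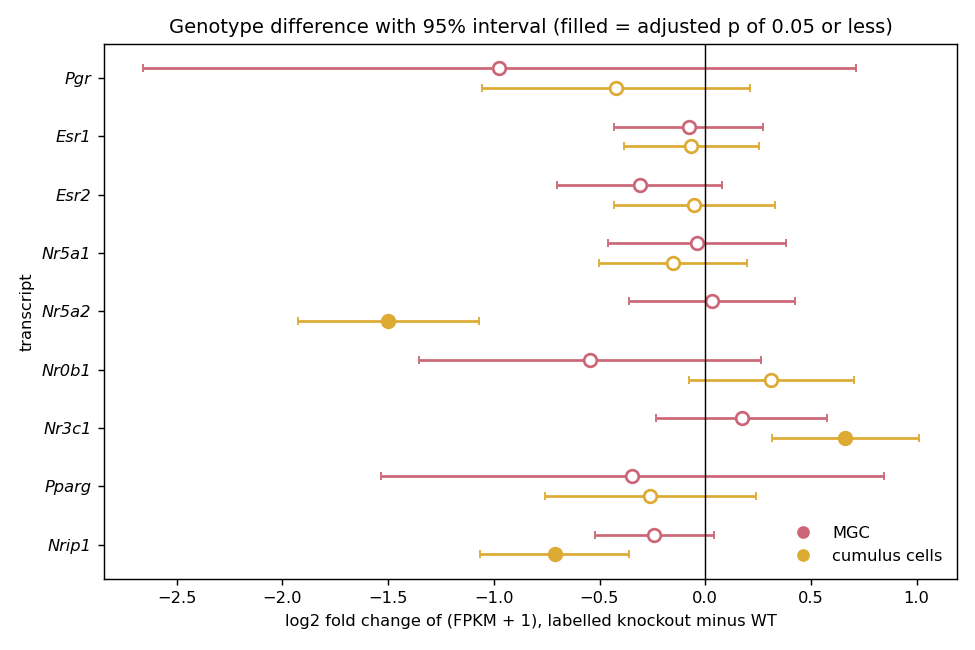
The log2 fold change of (FPKM + 1), labelled knockout minus WT (horizontal axis), is plotted for each of the 9 transcripts (vertical axis) in MGCs (red) and cumulus cells (yellow) with its 95% interval. Filled points passed: Nr5a2 at -1.498, Nrip1 at -0.71 and Nr3c1 at 0.66, all in cumulus cells.

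Ratios within a library do not depend on its scaling. LRH-1 and SF-1 bind the same DNA element, and the ratio of their transcripts, Nr5a2 over Nr5a1, was 7.82, 6.15 and 9.95 in WT MGCs and 8.80, 8.33 and 7.58 in MGCs labelled knockout. It was 3.79, 2.85 and 3.26 in WT cumulus cells and 1.13, 1.31 and 1.23 in those labelled knockout. In MGCs the genotypes overlapped, whereas in cumulus cells every library labelled knockout lay below every WT library, with the pair of transcripts close to equal. No test was run on the ratios. Pparg over Nr5a2 was 5.75, 5.56 and 6.31 in WT cumulus cells and 24.4, 13.5 and 9.80 in cumulus cells labelled knockout.

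**Figure D4:**
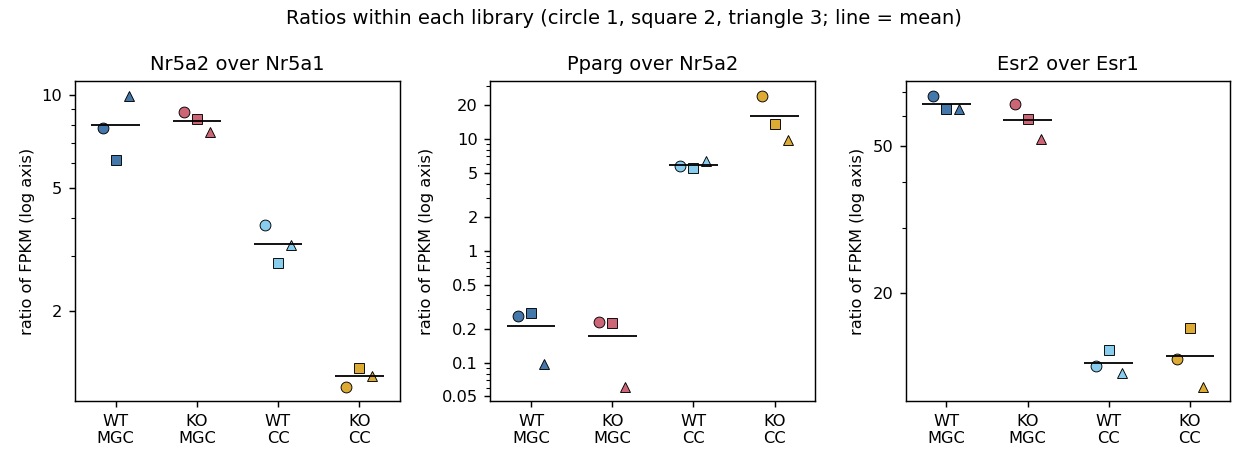
Ratios of FPKM (vertical axes, log scale) are plotted in each of the 12 libraries by group (horizontal axes; KO, labelled knockout; CC, cumulus cells), with circle, square and triangle for libraries 1, 2 and 3 and a line for the mean. Nr5a2 over Nr5a1 lies between 2.85 and 3.79 in WT cumulus cells and between 1.13 and 1.31 in those labelled knockout, while Esr2 over Esr1 overlaps between genotypes in both cell types.

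The stretches of 250 bases before the annotated starts of the 2 transcripts that were lower together in cumulus cells labelled knockout, Nr5a2 and Nrip1, and of Pgr, which differed most between cell types, are shown so that their sequence can be read beside the values. In the GENCODE annotation of GRCm38, Nr5a2 (ENSMUSG00000026398) spans chr1:136842571-136960448 and Nrip1 (ENSMUSG00000048490) chr16:76287400-76373827, both on the minus strand, and Pgr (ENSMUSG00000031870) spans chr9:8899833-8968611 on the plus strand. The sequences are from RefSeq on GRCm38.p6, are written 5′ to 3′ on the transcribed strand and end 1 base before the start. Capitals mark matches to the GC box GGGCGG on either strand. The window before the upstream start of Nr5a2 is chr1:136960449-136960698, and that before its downstream start, chr1:136953631-136953880, lies within the gene and overlaps no annotated exon. For Nrip1 the windows are chr16:76373828-76374077 and, within the gene and again in no exon, chr16:76373050-76373299. For Pgr the window is chr9:8899583-8899832.
Nr5a2, upstream start: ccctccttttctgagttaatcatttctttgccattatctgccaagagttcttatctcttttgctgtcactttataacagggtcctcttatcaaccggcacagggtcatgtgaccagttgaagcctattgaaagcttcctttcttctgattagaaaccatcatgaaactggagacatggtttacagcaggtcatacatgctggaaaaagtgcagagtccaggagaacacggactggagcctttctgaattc
Nr5a2, downstream start: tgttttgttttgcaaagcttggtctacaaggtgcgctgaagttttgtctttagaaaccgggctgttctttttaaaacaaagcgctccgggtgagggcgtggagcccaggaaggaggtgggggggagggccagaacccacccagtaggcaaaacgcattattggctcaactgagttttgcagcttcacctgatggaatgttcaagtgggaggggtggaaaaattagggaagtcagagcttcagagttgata
Nrip1, upstream start: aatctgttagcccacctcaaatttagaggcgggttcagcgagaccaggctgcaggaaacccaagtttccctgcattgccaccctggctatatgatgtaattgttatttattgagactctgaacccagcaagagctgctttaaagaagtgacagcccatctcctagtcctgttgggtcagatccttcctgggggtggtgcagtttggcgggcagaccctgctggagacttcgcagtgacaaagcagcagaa
Nrip1, downstream start: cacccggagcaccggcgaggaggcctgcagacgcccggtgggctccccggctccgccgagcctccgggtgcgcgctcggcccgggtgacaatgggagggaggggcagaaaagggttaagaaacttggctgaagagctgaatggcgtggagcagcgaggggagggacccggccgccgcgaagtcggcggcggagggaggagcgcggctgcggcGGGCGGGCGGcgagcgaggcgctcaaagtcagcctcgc
Pgr: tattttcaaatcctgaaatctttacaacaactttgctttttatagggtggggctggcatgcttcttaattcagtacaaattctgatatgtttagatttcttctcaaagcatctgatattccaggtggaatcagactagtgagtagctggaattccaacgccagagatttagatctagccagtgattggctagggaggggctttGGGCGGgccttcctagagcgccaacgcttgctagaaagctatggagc

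The GC box was found 1 time before the Pgr start, with its first base at position -47 counted back from the start, and 2 times, overlapping each other at -38 and -34, before the downstream Nrip1 start. It was in neither Nr5a2 window, and 32.7% of 32851 promoter windows of that length hold it. The cAMP response element TGACGTCA (in 1.55% of windows), the letters AAGGTCA to which LRH-1 and SF-1 bind (4.08%), the AP-1 letters TGANTCA (6.75%), the steroid receptor palindrome ACANNNTGT (5.84%) and the estrogen response element, GGTCA and its reverse complement with 3 bases between them (0.0639%), were searched on both strands too, and none of these letters is in the 5 windows. RefSeq windows were used for 7 of the 9 genes. None was found for Nr5a1, and windows on chromosome 18, which holds Nr3c1, were left out, so Nr3c1 was not searched. Of the 12 windows of these 7 genes, the only others with a GC box were the 2 upstream windows of Pparg, with 1 and 2, and no window held any of the other motifs.

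In MGCs, 0 of the 9 transcripts passed between genotypes (limma, 0 also at an unadjusted p of 0.05 or less), where 6 of 15279 genes tested (0.0393%) passed and 9.2% did at an unadjusted p. Without knockout MGC library 3, again 0 of the 9 passed, where 278 of 15215 genes did. Nrip1 alone did not overlap between the genotypes, as 16.9% of all genes did not, at 18.5, 18.6 and 20.4 FPKM in WT and 16.2, 15.0 and 17.1 in MGCs labelled knockout (log2 fold change -0.24, SE 0.119, adjusted p = 0.595, limma). Nr5a2 was at 275, 249.8 and 329 FPKM in MGCs labelled knockout, overlapping with WT, and the log2 fold change was 0.03 with an interval of -0.36 to 0.42. Pgr was at 124, 101 and 16.2 FPKM in MGCs labelled knockout. Its log2 fold change of -0.97 (SE 0.710, adjusted p = 0.733, limma) rested on knockout MGC library 3 and was -0.07 without it. In that library the summed leukocyte markers were at 27.0 FPKM and 5 red cell markers at 30.6, against 179.5 and 221.7 and against 291.4 and 230.0 in knockout MGC libraries 1 and 2. The summed mural granulosa markers were at 426.5 FPKM there against 920.7 and 816.2, and the 6 cumulus markers at 489.9 against 1906 and 1821. Other sums were highest in that library, the general granulosa markers at 12590 FPKM against 12140 and 11151 and the oocyte markers at 109.9 against 25.7 and 82.9. The part of any of these in the level of Pgr was not tested.

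Pparg and Esr2 were lowest in the MGC libraries numbered 3 of both genotypes. Pparg was at 30.9 FPKM there in WT and 20.05 in MGCs labelled knockout, against 57.1 to 71.9 in the other MGC libraries (log2 fold change -0.35, interval -1.54 to 0.85, and 0.17 without knockout MGC library 3). Esr2 was at 47.0, 50.3 and 40.2 FPKM in MGCs labelled knockout (log2 fold change -0.31, SE 0.165, adjusted p = 0.623, limma). Without both MGC libraries numbered 3, Esr2 passed at -0.36 (SE 0.0633, adjusted p = 0.0295, limma), in a fit where 2486 of 15433 genes passed. Nr5a1 was at 31.3, 29.99 and 43.5 FPKM (-0.04), Nr0b1 at 1.89, 2.35 and 1.25 (-0.54, and from -0.84 without WT MGC library 3 to -0.20 without WT MGC library 2), Nr3c1 at 4.47, 3.96 and 3.00 (0.17) and Esr1 at 0.725, 0.851 and 0.774 (-0.08). The median of the 9 was -0.24 and that of all genes -0.0034. MGC libraries were also set in 3 pairs by number, a pairing read from these data and not given by the labels. In every pair, 5 of the 9 transcripts, Pgr, Esr2, Nr0b1, Pparg and Nrip1, were lower in the library labelled knockout, as 18.1% of all genes were. Fitted with a block for that number, the SE of Pparg was 0.134 in place of 0.502, and adjusted p lay between 0.435 and 0.962 over the 9 (limma), so that 0 passed.

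Whether the genotype difference depended on cell type was tested directly, as the difference in cumulus cells minus that in MGCs. Nr5a2 was the only 1 of the 9 to pass, at -1.53 (SE 0.250, 95% interval -2.08 to -0.98, adjusted p = 0.0125, limma), where 3.93% of 15869 genes passed (1.48% lower). Nr5a2, Nrip1 and Nr3c1 had an unadjusted p of 0.05 or less, as 22.1% of all genes did. The genotypes of Nr5a2 were 3.00-fold apart in cumulus cells and 1.02-fold apart in MGCs. Nrip1 at -0.47 (adjusted p = 0.165, limma) and Nr3c1 at 0.49 (adjusted p = 0.216, limma) did not pass, so that their differences in cumulus cells were not shown to be larger than in MGCs. The other 6 lay between -0.11 and 0.86.

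The other genes of these pathways were taken from lists written from general knowledge, and their counts in cumulus cells stand beside the 22.3% of all genes that passed there (9.66% higher, 12.7% lower). Among 41 other nuclear receptors, 14 were tested in cumulus cells, 1 rose (Nr2f2, COUP-TFII, from 1.77 to 3.89 FPKM) and 1 fell (Thra, the thyroid hormone receptor alpha, from 2.52 to 1.57 FPKM), and the median was 0.16. Both were picked out after their values were seen, and without WT cumulus library 3, Nr2f2 and Nr4a1 rose and Thra did not pass. Nr1d2 (-0.31) and Nr1h2 (0.24) did not pass. Nr4a1 was at 644.7 to 668.8 FPKM in WT MGCs and 400.3 to 484.3 in those labelled knockout (log2 fold change -0.56, adjusted p = 0.296, limma), and at 3.44 to 18.5 and 12.9 to 24.4 FPKM in cumulus cells of the 2 genotypes.

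Of 13 coregulators tested in cumulus cells, 3 rose and 1 fell (median 0.31, against -0.06 for all genes). The 3 were the acetyltransferase Crebbp (CBP), from 6.02 ± 0.628 to 14.7 ± 1.02 FPKM (SD, n = 3), the Mediator subunit Med1, from 3.84 to 8.05 FPKM, and the coactivator Ncoa3, from 1.23 to 3.02 FPKM, all named after their values were seen. Pnrc2, which binds receptors and takes part in mRNA decay, fell from 43.2 to 26.1 FPKM (log2 fold change -0.72, adjusted p = 0.0285, limma). Crebbp (adjusted p = 0.00890) and Med1 (0.0176) also passed the test of the difference between cell types. Ncor1 (-0.26), Cited2 (0.33) and Pnrc1 (0.55) did not pass. Of 8 chaperones of steroid receptors, 2 rose, Hspa8 from 488 to 904 FPKM (0.90) and Dnaja1 from 134.6 to 236.6 FPKM (0.80), a share near that of all genes, and the median was 0.39. The same 4 coregulators and 2 chaperones passed without WT cumulus library 3. Hsp90aa1 (0.26) and Hsp90ab1 (0.34) did not pass.

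The lists of genes known to depend on the receptors were counted in the same way. Of 12 NR5A targets tested in cumulus cells, 5 fell and 1 rose (median -0.0063). Hsd3b1, an enzyme of progesterone synthesis, was at 757 to 897 FPKM in WT and 142 to 198 in cumulus cells labelled knockout (log2 fold change -2.36, SE 0.172, adjusted p = 0.00035, limma), and Cyp19a1, aromatase, was at 45.3 to 83.7 and 8.11 to 16.9 FPKM (-2.38, SE 0.306, adjusted p = 0.00236, limma). Lhcgr (-1.74), Cyp11a1 (-2.26) and the FSH receptor Fshr (-0.72) also fell, and Scarb1, the HDL receptor, rose from 8.46 to 16.8 FPKM, with Fshr and Scarb1 named after their values were seen. The most abundant target, Inha, at means of 1629.6 and 1869.7 FPKM, Gja1, at 772.7 and 735.7 FPKM, and Fdx1, at 956.7 and 1050.5 FPKM, did not pass. Hsd3b1 (-2.25, adjusted p = 0.0135, limma) and Cyp19a1 (-3.05, adjusted p = 0.0166, limma) passed the test of the difference between cell types as well. Cyp19a1, Lhcgr, Cyp11a1 and Fshr make up the 4 that fell among 7 genes listed as dependent on ESR2 (median -0.72), so that these 2 lists share them, while Ptgs2 (-0.04) did not pass. Without WT cumulus library 3, Fshr no longer passed and the others of both lists did. Of 8 general granulosa markers, 5 fell (Cyp19a1, Fshr, and, named after their values were seen, Foxl2, Hsd17b1 and Inhba), with summed levels of 3980 to 5158 FPKM in WT and 2727 to 3092 FPKM in cumulus cells labelled knockout. Their part in the levels of Nr5a2 and its targets was not tested.

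The lists for the other receptors follow. Of 11 progesterone receptor targets, 4 rose and 0 fell (median 0.33), among them the protease Ctsl from 1955 to 2916 FPKM (0.58, adjusted p = 0.0452, limma) and endothelin-2, Edn2, from 1.14 to 8.79 FPKM (2.21). The other two, the kinase Prkg2 (1.06) and the vesicle fusion protein Snap25 (0.91), were chosen after their values were seen, as was Edn2, and Ctsl alone did not pass without WT cumulus library 3, where the median was 0.63. Prkg2 and Snap25 had WT means below 0.5 FPKM and were tested through the libraries labelled knockout alone, and of the 9 targets with means of 0.5 FPKM or more in both genotypes, 2 rose. Hif1a (0.58) and Ereg (-0.0016) did not pass. Of 8 PPARG targets and partners, 4 rose and 0 fell (median 0.56), with the fatty acid transporter Cd36 going from 20.1 to 40.9 FPKM (1.03, adjusted p = 0.0155, limma), and Edn2 is on both lists. Fabp4 (1.14), a fatty acid binding protein, and Plin2 (0.94), a lipid droplet protein, were named after their values were seen, and Fabp4 did not pass without WT cumulus library 3. Fabp4 too had a WT mean below 0.5 FPKM, and of the 7 genes with means at that level in both genotypes, 3 rose. Lpl (-0.49), Pdk4 (-0.27) and Rxrb (0.17) did not pass. Of 10 glucocorticoid receptor targets and glucocorticoid-converting enzymes, 2 rose and 0 fell (median 0.19), a share near that of all genes, 1 of them Nfkbia, the inhibitor of NF-kB, from 75.4 to 122.7 FPKM, and the other the phosphatase Dusp1 (1.34), named after its values were seen. Without WT cumulus library 3, the 2 that rose were Dusp1 and Sgk1 and the median was 0.35. Sgk1 (0.56), Mt1 (0.66) and Hsd11b2 (-0.63) did not pass with all libraries. Of 7 ovulatory genes that depend on Nrip1, 2 rose and 0 fell (median 0.58): Tnfaip6 from 188 to 535 FPKM and Ptx3 from 144.5 to 461.5 FPKM, both genes of cumulus matrix expansion that also stand among the 6 cumulus markers. Ptx3 was named after its values were seen, and both passed without WT cumulus library 3. Areg, an EGF-like ligand induced by LH, did not pass, at 74.3 and 68.5 FPKM. In MGCs, 94 genes of the lists for receptors, partners and targets were tested between genotypes, and 0 passed (limma). At a p left unadjusted, 14 of the 94 would have passed, where 9.2% of all genes would.

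**Figure D5:**
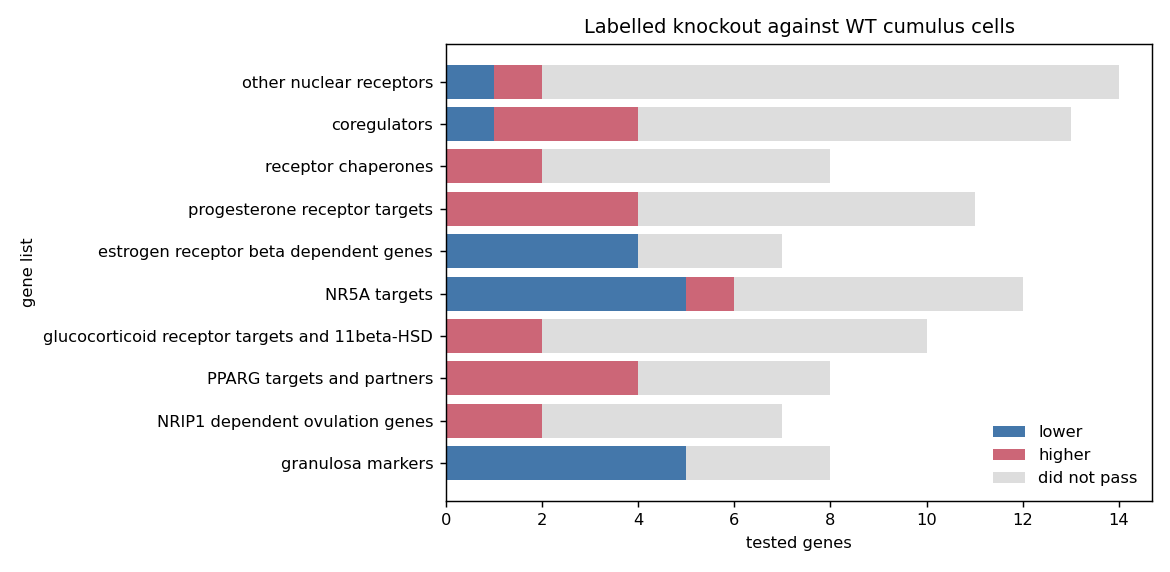
For each gene list (vertical axis), the bar gives the number of genes tested in cumulus cells (horizontal axis), split into those that were lower (blue), higher (red) or did not pass (grey) in the libraries labelled knockout. Lower genes are most of those that passed among NR5A targets (5 of 6), ESR2 dependent genes (4 of 4) and granulosa markers (5 of 5). Cyp19a1 and Fshr are on all 3 of these lists, and Cyp11a1 and Lhcgr on those of NR5A and ESR2. Higher genes are all of those among PPARG (4), progesterone receptor (4) and glucocorticoid receptor targets (2), Nrip1 dependent genes (2) and chaperones (2). Of all genes tested, 22.3% passed (9.66% higher, 12.7% lower), and the shares of glucocorticoid receptor targets and chaperones lie near that. With means of 0.5 FPKM or more in both genotypes, 3 PPARG and 2 progesterone receptor targets were higher, and Edn2 is on both lists.

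Genes whose levels ran closest to each transcript over the 12 libraries were found among 8472 genes by Pearson's r of log2(FPKM + 1). For Nr5a2 they were Anp32a (r = 0.994), Herc3 (0.992) and Zdhhc17 (0.992). Anp32a was at 31.5 and 29.9 FPKM in MGCs of the 2 genotypes, 6.55 in WT cumulus cells and 3.38 in those labelled knockout. For Nr5a1 they were Cyhr1, Zfp787 and Smarcc2 (0.998 to 0.997), for Pgr Pcyt1a (0.996) and Gm11478 (0.993), and for Nr3c1 Bmper, Ly6e and Baiap2 (0.989 to 0.985). Bmper, an extracellular modulator of BMP signaling, was at 34.6 and 46.7 FPKM in MGCs, 2.93 in WT cumulus cells and 11.2 in those labelled knockout. For Nrip1 they were Gm37350 and Cul4b (0.986), for Esr2 AW549877, Ypel2 and Prkd3 (0.988 to 0.982), for Esr1 Glrx, Gtf2e2 and Apoa1 (0.985 to 0.977), for Pparg Wdr37, Ccdc174 and Eif5 (0.951 to 0.950), and for Nr0b1 Ntn4, Pdgfb and Rgs11 (0.950 to 0.948). All of these values are led by the difference between the 2 cell types, which the 12 libraries share.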

How the data were processed

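RNA from 12 libraries, 3 in each of 4 groups, was sequenced by the authors 2 h after hCG. The authors deposited 1 table of FPKM values per cell type. Their unit is not named in the tables and was inferred from the values: 90.6 to 92.1% were whole multiples, within 0.02, of the FPKM that 1 read of that exon length is worth. The submitters' processing notes name HISAT2 and GRCm38. The counter and annotation are not given in the sources used here, nor is strand, and the kit named does not mark it. Gene symbols and exon lengths came from GENCODE M21.

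Values were tested as log2(FPKM + 1) with limma 3.58.1 (trend, R 4.3.3) on every gene whose mean reached 0.5 FPKM in either group compared, with Benjamini-Hochberg adjustment and a threshold of 0.05. Genotypes were compared within each table, and cell types and the difference between genotype effects over all 12 libraries. The added 1 FPKM understates fold changes of low genes. All 9 transcripts were described, and of each list the 4 genes of highest mean were named, others only as chosen after their values were seen. A few genes that these rules select are not reported here. The transcripts and lists were chosen with earlier results of these data known. Alternatives were the added value, the filter, median-of-ratios and quantile scaling, a fold limit, a replicate block, each library left out and both MGC libraries numbered 3 left out. Of these, the block within each cell type, and a filter on both groups for the lists, were added after seeing the data. Ratios, shares and motif counts were made with Python 3.11.15, pandas 2.3.3 and numpy 2.4.6, and figures with matplotlib 3.10.9.

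Whether equal replicate numbers pair the libraries was checked by the correlation of deviations from the group means. MGC pairs gave 0.239, 0.180 and 0.229, whereas cumulus pairs gave -0.151, -0.0620 and 0.104. MGC libraries of unlike number gave -0.248 to 0.166. Across cell types, unlike numbers reached 0.219, between knockout MGC library 3 and WT cumulus library 2. Numbers were taken to pair MGC libraries only, from the data and not from the labels, and these correlations cannot settle whether they mark true pairs.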

Additional observations from a re-analysis of the deposited data

Results flagged for a closer look

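The difference between genotypes in Nr5a2 was not alike in the 2 cell types, by the test of that difference itself. Subtracting the log2 fold change of MGCs from that of cumulus cells left -1.53 (SE 0.250, adjusted p = 0.0125, limma). It was lower in 3 of 3 cumulus libraries labelled knockout than in any WT cumulus library, while the MGC libraries of the genotypes overlapped. Over the 23 settings tried it ranged from -1.62 to -1.24, with adjusted p from 0.00636 to 0.0441 (limma).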

How the results depend on the processing

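Of the 9 transcripts, 1 passed between genotypes in MGCs without both libraries numbered 3. In cumulus cells 1 passed with a fold change of at least 2, 1 with no filter on low values, and 1 to 3 with single libraries left out, the lowest without knockout cumulus library 3, and the cause was not tested beyond the fewer samples or more genes these settings hold. With no filter, Nrip1 had an adjusted p of 0.0598 and Nr3c1 of 0.0792 (limma). With a replicate block, the transcripts passing stayed at 0 in MGCs, 3 in cumulus cells, 9 and 9 between cell types and 1 in the difference of effects, and the block, alone or within each cell type, changed no other call of them. Over all genes, the 6 that passed in MGCs became 1 with either other scaling, an added 5 FPKM, no filter or a filter of 5 FPKM, 3 with the block, 241 in the fit of 12 libraries, 2486 without both libraries numbered 3, and 0 to 278 with single libraries left out. The 2725 in cumulus cells became 725 with no filter, 1807 with a filter of 5 FPKM and 1319 to 3930 with single libraries left out. The 624 in the difference of effects became 327 with no filter, 428 with the block, 926 with the block within each cell type, 961 with median-of-ratios scaling, 2474 without both libraries numbered 3, and 108 to 1189 with single libraries left out. Between cell types, the 12156 in WT and 11643 in the libraries labelled knockout became 7059 and 6807 with a filter of 5 FPKM and 7733 and 7160 with a fold change of at least 2, which left 981 in cumulus cells. Calls between cell types in WT split 8336 higher and 3820 lower as deposited, 6120 and 5622 with median-of-ratios scaling and 5407 and 5644 with quantile normalization. In the libraries labelled knockout the split was 8146 and 3497, 5922 and 5373, and 5156 and 5402.

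Differences that turned sign did not pass on either side, with the exception of Nr0b1 between cell types in the libraries labelled knockout (0.69, and -0.016 with quantile normalization). Between genotypes these were Esr1 in MGCs with quantile normalization (0.028), and Esr2 in cumulus cells with median-of-ratios scaling (0.015) and quantile normalization (0.033). In the difference of effects they were Pgr (-0.23), Nr5a1 (0.13) and Pparg (-0.043) without both MGC libraries numbered 3, and Esr1 with an added 5 FPKM (-0.0014), median-of-ratios scaling (-0.00032) and quantile normalization (-0.072). With single libraries left out, Nr5a1 ranged from -0.20 to 0.058, Nr5a2 from -0.078 to 0.13 and Pparg from -0.73 to 0.17 in MGCs, and Esr1 from -0.11 to 0.0019 and Esr2 from -0.14 to 0.056 in cumulus cells. In the difference of effects, Pgr ranged from -0.35 to 1.08, Esr1 from -0.037 to 0.081, Nr5a1 from -0.21 to 0.0498 and Pparg from -0.43 to 0.47. In cumulus libraries, Nr0b1 rested on 4 to 31 reads, Pgr on 25 to 258 and Nr3c1 on 70 to 287. The part of depth in the spread of these 3 was not tested.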
